A study of Homo sapiens with 4 samples.

Results

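MYC, its partner MAX and the proteins that compete with MYC for MAX were followed here as 10 genes: *MYC*, *MYCN*, *MYCL*, *MAX*, *MXD1*, *MXD3*, *MXD4*, *MNT*, *MLX* and *FUBP1*. They were taken by symbol from a table of 28278 genes, and all 10 were found. The RNA came from 4 libraries of cells labelled HepG2, a human liver cancer line. The cells carried lentiviral Cas9 with either a control sgRNA (2 control libraries) or 1 *USP22* sgRNA (2 libraries labelled sgUSP22), were selected as stable populations rather than single clones, and all received Sorafenib, a kinase inhibitor used against liver cancer, at 10 µM for 24 h. No untreated library was analysed here, so every value describes Sorafenib-treated cells. USP22 removes ubiquitin from histones as part of the SAGA complex and from other proteins, among which MYC and the *FUBP1* product have been named. The sources used here do not say whether the 2 libraries of a group came from separate cultures, so p-values measure only the spread between these libraries.

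Library totals ranged from 62030307 to 64728272 counts. *USP22* itself had 16450 and 16537 counts in control, against 20279 and 20368 in libraries labelled sgUSP22, so its transcript was not lower under the knockout label and directions below follow the labels alone. The study checked its knockout cells by Western blot, that is, as USP22 protein, which RNA counts do not measure. Markers of the labelled cell type were absent: of 19 hepatocyte genes, *ALB*, *APOA1* and *AFP* among them, 10 were at 0 in all 4 libraries and none exceeded 19 counts. Their summed level was 0.443 to 0.561 CPM (counts relative to the library total, scaled by TMM factors) in control and 0.480 to 0.913 CPM in sgUSP22 libraries. Of 5 epithelial genes, *KRT19*, *EPCAM* and *CDH1* reached at most 4 counts, and the sum, carried by *KRT8* and *KRT18*, was 1756 to 1795 CPM in control and 1315 to 1373 CPM in sgUSP22 libraries. The 9 mesenchymal genes, such as *VIM* and *COL3A1*, summed to 1853 to 1868 CPM in control and 1827 to 1854 CPM in sgUSP22 libraries. These near-equal sums join opposite differences, with *DCN* and *LUM* called higher, *PDGFRB* called lower and *COL1A2* at 0 in 3 libraries. *VIM* went from 1078 and 1067 CPM in control to 830 and 806 CPM in sgUSP22 libraries, and *CDH2* was also lower. *COL3A1* went from 499 and 508 CPM to 576 and 569 CPM. The 7 blood and endothelial genes, of which 6 had at most 16 counts and *CD68* had 2835 to 4610, summed to 74.0 to 74.3 CPM in control and 44.2 to 47.0 CPM in sgUSP22 libraries. The part of these differences in the results below was not tested.

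MYC is a transcription factor of the basic helix-loop-helix leucine zipper class that binds DNA only as a pair with MAX, and MYC-MAX pairs activate genes for ribosome building, nucleotide synthesis and cell growth. MXD proteins and MNT also pair with MAX, occupy the same E-box sites and recruit SIN3 and histone deacetylases, so they oppose MYC. MLX is a second, MAX-like hub that pairs with some MXD proteins, with MNT and with the glucose sensors MLXIP and MLXIPL, while FUBP1 binds single-stranded DNA upstream of *MYC* and promotes its transcription. In liver cancer, *MYC* is a commonly gained and overexpressed oncogene.

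*MYC* and *FUBP1* were lower in the libraries labelled sgUSP22, whereas *MAX* and 3 of the genes that oppose MYC, *MXD1*, *MXD4* and *MNT*, were higher. All of these differences were small: *MYC* fell by 14.6%, *MXD1* rose 1.41-fold, and none reached 1.5-fold. Of the 10 genes, 9 passed the filter on low counts and were tested, and *MYCN* was at 0 throughout. At an adjusted p below 0.05 (edgeR's quasi-likelihood test, Benjamini-Hochberg adjustment over 15150 tested genes), 4 genes rose and 2 fell. The same threshold was passed by 52.5% of all tested genes, 26.8% higher and 25.8% lower, so passing it was common in these libraries. With a fold change of at least 1.5 required as well, which is how the study called genes, edgeR called 0 of the 9 and DESeq2 also called 0, against 16.1% of all tested genes. At an unadjusted p below 0.05 in edgeR, 7 of the 9 passed. In all 9 genes the control and sgUSP22 libraries did not overlap, 5 being higher and 4 lower in sgUSP22, against 75.9% of all tested genes (38.3% higher and 37.6% lower). In bulk RNA, fewer cells of a type and less RNA per cell cannot be told apart. The plot of levels by library shows these values side by side.

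**Figure D1:**
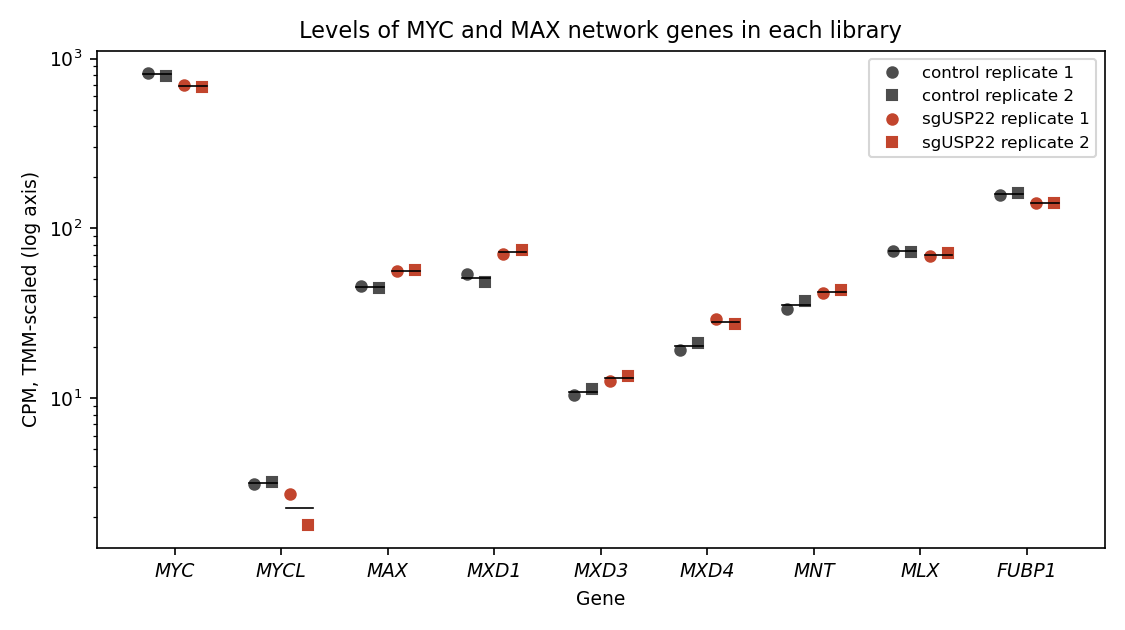
Level of each tested gene in each library, in TMM-scaled CPM on a log axis, with grey symbols for control, red symbols for sgUSP22 libraries and a short line at each group mean. *MYC* lies near 808 CPM in control and 689 CPM in sgUSP22 libraries, and in each gene the 2 grey symbols lie wholly above or wholly below the 2 red ones. *MYCN*, at 0 in all libraries, is not drawn, and heights of different genes are not comparable because CPM is not divided by gene length.

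*MYC* (chromosome 8 of hg38, 127735434 to 127742951, plus strand) had 49994 and 49603 counts in control, against 45816 and 43982 in libraries labelled sgUSP22, or 820 and 795 CPM against 697 and 681 CPM. Both sgUSP22 libraries lay below both control libraries, and the gap was larger than the spread within either group. *MYC* fell by 14.6%, a log2 fold change of -0.23 (SE, the standard error, 0.032, edgeR adjusted p = 0.000215). Its 95% confidence interval ran from 0.812-fold to 0.897-fold. Fits without any 1 library gave *MYC* values between -0.26 and -0.21. The 29 other tested genes that start within 5 Mb of *MYC* had a median of 0.073 on the log2 scale, with 3 called lower and 3 higher. Among those called lower was *PVT1*, a long noncoding RNA gene next to *MYC* on the same strand, which had 2091 and 2281 counts in control and 1225 and 1245 counts in sgUSP22 libraries. Its log2 fold change was -0.90 (SE 0.073, edgeR adjusted p = 5.89e-06), or from 35.4 ± 1.61 (SD, n = 2) to 19.0 ± 0.456 (SD, n = 2) CPM.

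Of the other 2 MYC paralogs, *MYCN*, best known from neuroblastoma, was listed at 0 in all 4 libraries. Given the depth, up to 3 counts (0.0463 to 0.0484 CPM, depending on the library) could have been missed, a limit for counting error only. *MYCL*, a paralog first found in lung cancer, was the scarcest of the 9 tested network genes, with 190 and 199 counts in control and 178 and 115 counts in sgUSP22 libraries. One sgUSP22 library stood close to the controls and the other well below them. Its log2 fold change of -0.49 did not pass the threshold (SE 0.23, edgeR adjusted p = 0.0985, 95% confidence interval -0.999 to 0.021). The value rested on the sgUSP22 libraries: it was -0.84 without replicate 1 (adjusted p = 0.0231 in edgeR, past 1.5-fold) and -0.22 without replicate 2 (adjusted p = 0.495). *FUBP1* (chromosome 1, 77944055 to 77979110, minus strand) had 157 and 161 CPM in the control libraries and 140 CPM in both sgUSP22 libraries, which were nearly equal to each other. It fell by 11.6%, a log2 fold change of -0.18 (SE 0.037, edgeR adjusted p = 0.00248). *FUBP1* has the lowest GC content of the 10 transcripts, 35.9% in the longest annotated one against a median of 48.4% over tested genes, and after removal of GC and length trends its log2 fold change was -0.46.

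*MAX*, the shared partner, lies on the minus strand of chromosome 14 from 65006174 to 65102695. It had 2787 and 2775 counts in control, against 3671 and 3672 in libraries labelled sgUSP22, or 45.7 and 44.5 CPM against 55.9 and 56.9 CPM. Replicates agreed closely in both groups and the groups were far apart. *MAX* rose 1.25-fold, a log2 fold change of 0.32 (SE 0.050, edgeR adjusted p = 0.000415, 95% confidence interval 1.16-fold to 1.35-fold). *FNTB*, a farnesyltransferase gene on the opposite strand, overlaps *MAX* and had 593 to 723 counts. *CHURC1-FNTB*, also on that strand, had 0 and 162 counts in control and 0 and 69 counts in sgUSP22 libraries. The strand setting of the counting is not given in the sources used here. The part of these overlaps in the *MAX* value was not tested.

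Among the genes that oppose MYC, *MXD1* and *MXD4* had nearly the same difference, less than their SEs apart. *MXD1*, which is induced when cells differentiate, lies on the plus strand of chromosome 2 from 69897688 to 69942945 and had 53.9 and 48.4 CPM in control and 70.2 and 74.1 CPM in sgUSP22 libraries. It rose 1.41-fold, a log2 fold change of 0.50 (SE 0.060, edgeR adjusted p = 7.97e-05, 95% confidence interval 1.29-fold to 1.55-fold). *MXD4*, a relative also linked to differentiation and quiescence, had 1177 and 1312 counts in control and 1918 and 1764 counts in sgUSP22 libraries, or 19.3 and 21.0 CPM against 29.2 and 27.3 CPM. The groups were clearly apart, and *MXD4* rose 1.40-fold, a log2 fold change of 0.49 (SE 0.080, edgeR adjusted p = 0.000631, 95% confidence interval 1.24-fold to 1.59-fold). After removal of GC and length trends *MXD4* reached a log2 fold change of 0.61 and was called higher, while *MXD1* had 0.38. For both genes the interval included 1.5-fold. In the GENCODE annotation *SNRNP27* overlaps *MXD1* on the same strand, with 2188 to 2293 counts. The RefSeq start of *MXD1* used below lies just past 69915108, inside the GENCODE span, so this overlap may depend on the annotation.

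*MNT*, a broadly expressed antagonist of MYC, had 33.3 and 37.4 CPM in control and 41.3 and 43.3 CPM in sgUSP22 libraries. The control libraries differed from each other by about as much as the higher of them differed from the lower sgUSP22 library. *MNT* rose 1.20-fold, a log2 fold change of 0.26 (SE 0.068, edgeR adjusted p = 0.00913). Without sgUSP22 replicate 2 it no longer passed (log2 fold change 0.23, adjusted p = 0.0653 in edgeR). *MXD3*, which unlike its relatives is found in dividing cells in S phase, had 639 and 708 counts in control and 828 and 872 counts in sgUSP22 libraries, or 10.5 and 11.3 CPM against 12.6 and 13.5 CPM. Its log2 fold change of 0.26 just missed the threshold (SE 0.10, edgeR adjusted p = 0.0558, 95% confidence interval 1.02-fold to 1.40-fold before adjustment). *MXD3* passed with library size alone (adjusted p = 0.0263), with a mean of at least 50 counts (0.0467) and after the GC and length correction (0.00485, log2 fold change 0.44), all in edgeR. Annotated neighbours overlap it, *RAB24* on the same strand and *PRELID1* on the other, and *PRELID1* had 12458 to 14955 counts, so reads at the shared ends may not be told apart. Genes starting within 5 Mb of *MXD1*, *MXD4*, *MNT* and *MAX* had median log2 fold changes of -0.051, 0.009, -0.062 and 0.084.

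**Figure D2:**
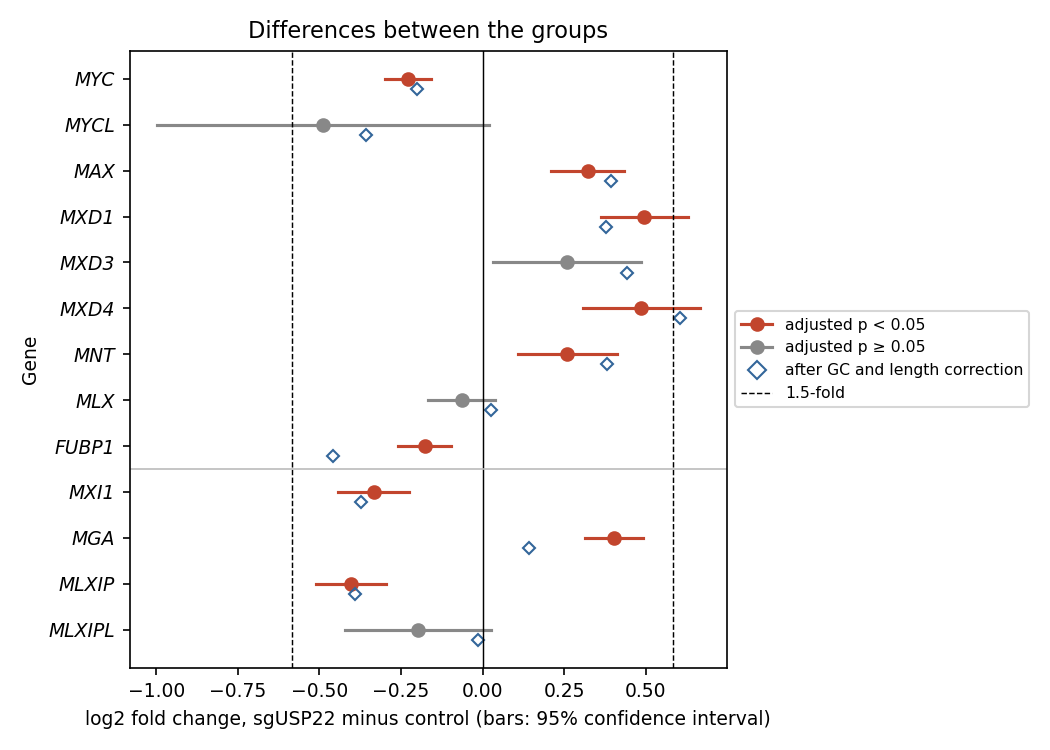
Log2 fold change of each gene, sgUSP22 minus control, with bars for the 95% confidence interval from edgeR (red where the adjusted p was below 0.05, grey where not), open diamonds for the value after GC and length correction, and dashed lines at 1.5-fold. *MYC* and *FUBP1* lie left of 0 and *MAX*, *MXD1*, *MXD4* and *MNT* right of it, their round points all inside the dashed lines, which the bars of *MXD1* and *MXD4* and the diamond of *MXD4* reach past. The 4 genes below the grey line are the other network genes, *MXI1*, *MGA*, *MLXIP* and *MLXIPL*.

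The E-box CACGTG, the preferred site of MAX and MLX pairs, was searched in the 250 bases before each transcription start (RefSeq, GRCh38.p14), where 8 of the 10 genes had an entry. *MYC* and *FUBP1* had none. The site reads the same on both strands. It was present in 3 of the 8 genes, *MXD4*, *MNT* and *MLX*, and in 6.34% of all 35116 promoters. Here and for the variant site below, genes are set against promoters, of which a gene such as *MAX* can have several. The shares are therefore not on the same basis. The variant site CACGCG, searched on both strands, was present in 0 of the 8 genes and in 9.72% of all promoters. The sequences of those 3 are shown because they carry the site, 238 bases before the start in *MXD4*, 193 in *MNT* and 50 in *MLX*, and they end where the first annotated exon begins. They are given 5′ to 3′ on the strand of the gene with the E-box in capitals, from chr4:2262110-2262359 (minus strand), chr17:2401105-2401310 (minus strand) and chr17:42566850-42567071 (plus strand).
MXD4: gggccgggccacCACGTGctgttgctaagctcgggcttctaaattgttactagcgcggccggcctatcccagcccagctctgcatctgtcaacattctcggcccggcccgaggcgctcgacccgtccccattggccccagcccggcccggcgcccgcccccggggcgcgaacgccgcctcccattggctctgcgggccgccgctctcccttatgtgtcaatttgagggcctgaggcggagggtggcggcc
MNT: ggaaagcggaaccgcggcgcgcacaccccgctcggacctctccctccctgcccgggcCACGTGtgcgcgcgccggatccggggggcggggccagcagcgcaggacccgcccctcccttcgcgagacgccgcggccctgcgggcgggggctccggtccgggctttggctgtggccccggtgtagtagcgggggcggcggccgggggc
MLX: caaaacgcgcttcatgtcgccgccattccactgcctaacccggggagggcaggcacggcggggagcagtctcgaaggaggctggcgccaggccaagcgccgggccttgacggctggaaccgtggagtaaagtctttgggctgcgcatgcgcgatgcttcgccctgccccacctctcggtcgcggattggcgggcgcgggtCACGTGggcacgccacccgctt
Of these 3 genes *MXD4* and *MNT* rose and *MLX* did not pass the test, and *MAX* and *MXD1*, which also rose, had no such site in the window. A match is a description of letters, and binding was not measured here.

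*MLX*, the hub of the MAX-like arm, had 74.0 and 72.6 CPM in control and 68.4 and 71.8 CPM in sgUSP22 libraries. Its log2 fold change was -0.06 (SE 0.046, edgeR adjusted p = 0.279), and the 95% confidence interval of 0.891-fold to 1.03-fold leaves little room for a larger difference. After the GC and length correction the value was 0.026, on the other side of 0. The other genes for partners of MLX and MAX moved both ways. *MGA*, a giant MAX partner that belongs to a Polycomb-type repressor complex, had 7543 and 7992 counts in control and 10727 and 10945 counts in sgUSP22 libraries and rose 1.32-fold (log2 fold change 0.40, SE 0.040, edgeR adjusted p = 2.27e-05), though the GC and length correction left 0.14. *MLXIP*, which encodes the glucose sensor MondoA, had 65.6 and 63.8 CPM in control and 48.3 and 49.4 CPM in sgUSP22 libraries and fell by 24.4% (log2 fold change -0.40, edgeR adjusted p = 7.34e-05). *MLXIPL*, which encodes the related ChREBP, had a log2 fold change of -0.20 that did not pass the threshold (edgeR adjusted p = 0.127). *MXI1*, the remaining MXD-type antagonist, went the other way from *MXD1* and *MXD4*, with 81.3 and 82.3 CPM in control and 67.3 and 62.6 CPM in sgUSP22 libraries, a log2 fold change of -0.33 (edgeR adjusted p = 0.000284). *MXI1* lies on chromosome 10 at 110207605, and the 431 tested genes that start beyond 40 Mb on this chromosome had a median of -0.41 on the log2 scale, with 29.5% called lower against 6.60% elsewhere. The part of this regional shift in the *MXI1* value was not tested.

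Since CPM does not allow levels of different genes to be compared, counts were also divided by the summed exon length of each gene and scaled to the same sum in every library (a TPM-like level). On this scale *MYC* exceeded every other gene of the network by far, with 587 and 568 in control and 537 and 534 in sgUSP22 libraries, rank 237 of 25763 genes in both groups. The order below it in control libraries was *FUBP1* (91.0 ± 1.45, SD, n = 2), *MLX* (75.3 ± 1.13), *MXD1* (35.2 ± 2.68), *MAX* (31.5 ± 0.647), *MNT* (17.7 ± 1.42), *MXD4* (12.8 ± 0.759), *MXD3* (10.1 ± 0.553) and *MYCL* (2.77 ± 0.042). In sgUSP22 libraries the order was the same, with *MXD1* at 53.9 ± 2.66, *MAX* at 42.8 ± 1.03, *MNT* at 23.1 ± 1.01, *MXD4* at 19.5 ± 0.690 and *MXD3* at 13.1 ± 0.789 (SD, n = 2 each). Of the other genes, *MYC* had 535 ± 2.72, *FUBP1* 87.4 ± 0.946, *MLX* 78.2 ± 3.58 and *MYCL* 2.14 ± 0.603. This scale is not TMM-scaled, and over tested genes it moved the median log2 ratio of sgUSP22 to control to 0.12, so changes read from it differ from those above: *MYC* fell by 7.28%, *FUBP1* fell by 3.93% and *MLX* was 3.98% higher. It is used here for the order of genes within a group and for ratios only. No neighbours in this order overlapped between libraries of a group. With the length of the longest transcript instead, *MLX* stood above *FUBP1* and *MAX* above *MXD1*, and *MXD3* and *MXD4* overlapped in control libraries, so these 3 neighbouring pairs have no settled order.

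The ratio of 2 levels within a library does not depend on how libraries are scaled. The level of *MYC* divided by the summed level of *MXD1*, *MXD3*, *MXD4* and *MNT* was 7.75 and 7.49 in the control libraries and 5.03 and 4.75 in the libraries labelled sgUSP22. It was lower in both sgUSP22 libraries than in both controls, and its mean fell by 35.8% (7.62 ± 0.181 to 4.89 ± 0.193, SD, n = 2). This sum leaves out *MXI1*, which was lower in sgUSP22 libraries and stood above each of the 4 in control libraries (60.5 ± 0.399, SD, n = 2). With *MXI1* in the sum, an alternative chosen after seeing the data, the ratio was 4.32 and 4.16 in control and 3.35 and 3.27 in sgUSP22 libraries, and its mean fell by 21.9%. With 2 libraries against 2, an exact two-sided permutation test cannot give a p below 0.333, and no test was made. The ratio of *MYC* to *MAX* went from 18.4 and 18.3 to 12.8 and 12.3, a mean that fell by 31.7%. The sum of the 4 antagonists relative to *MAX* went from 2.37 and 2.44 to 2.54 and 2.58, 6.43% higher in mean. Taken singly over *MAX*, the mean changed by 12.9% for *MXD1* and 12.0% for *MXD4*, with no overlap between the groups. For *MXD3* and *MNT* the groups overlapped, so their mean changes of -4.42% and -4.28% have no settled direction. *MXD3* over *MAX* was 0.302 and 0.337 in control and 0.298 and 0.313 in sgUSP22 libraries. *MNT* over *MAX* was 0.524 and 0.604 in control and 0.532 and 0.547 in sgUSP22 libraries. The direction of the summed ratio depends on the genes in it. With *MXI1* that ratio went from 4.26 and 4.40 to 3.82 and 3.75, and its mean fell by 12.6%. With longest-transcript lengths and without *MXI1*, *MYC* over the sum, *MYC* over *MAX* and the sum over *MAX* changed by -34.9%, -31.7% and 4.78%. These are transcript levels, and the proteins were not measured in these libraries.

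**Figure D3:**
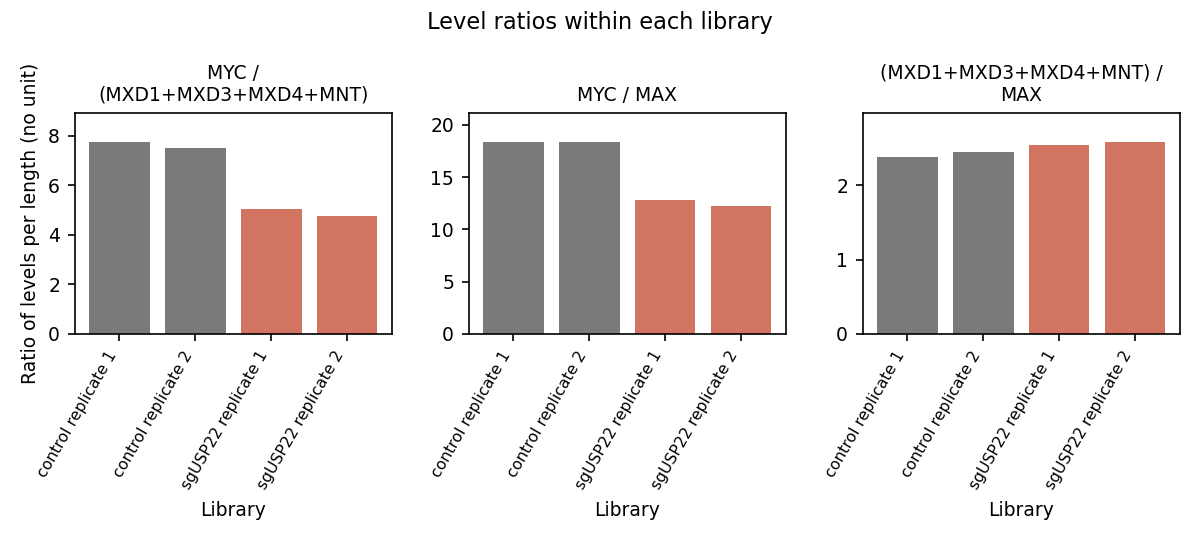
Ratios of levels per exon length within each of the 4 libraries, as bars from 0, for *MYC* over the sum of *MXD1*, *MXD3*, *MXD4* and *MNT*, for *MYC* over *MAX*, and for that sum over *MAX*. The first falls from 7.75 and 7.49 in control (grey) to 5.03 and 4.75 in sgUSP22 libraries (red), while the last lies between 2.37 and 2.58. *MXI1* is not in the sum.

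The 3 tested genes whose values over the 4 libraries lay nearest to those of *MYC*, by the Euclidean distance between log2 CPM values centred on each gene's mean, were *RPL34* (distance 0.0068), *RBBP7* (0.014) and *ERCC3* (0.014). Their log2 fold changes were -0.23, -0.22 and -0.24. Of 15141 genes compared, 987 lay within a distance of 0.1, so this pattern is shared by many genes.

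Genes that control *MYC* or carry out its program were counted from hand-written lists. Of 15 tested genes that act on *MYC* transcription or mRNA, 0 were called higher and 2 lower, against 8.88% and 7.25% of all tested genes, and the median log2 fold change was -0.21 against 0.001 over all tested genes. Without the fold threshold 3 of the 15 rose and 9 fell, against 26.8% and 25.8% of all tested genes. The unadjusted p gave the same counts, and DESeq2 also called 0 higher. The GC and length correction moved the median to -0.10 and left 1 higher and 8 lower at the adjusted p, and without control replicate 1 there were 1 higher and 9 lower. The 2 called were *PVT1* and *TCF7L2*, the Wnt pathway factor that drives *MYC* in gut cells, which had 2364 and 2667 counts in control and 1383 and 1410 counts in sgUSP22 libraries (log2 fold change -0.93). *TCF7L2* also lies on the shifted part of chromosome 10. Among the other genes, the *FUBP1* relatives *FUBP3* and *KHSRP* had log2 fold changes of 0.13 and -0.23.

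Of 17 tested genes that govern turnover of the MYC protein, 2 were called higher and 1 lower, against 8.88% and 7.25% of all tested genes. The median was 0.17 on the log2 scale, and 9 rose and 4 fell at the adjusted p alone, or 52.9% and 23.5% against 26.8% and 25.8%. This split did not hold under the GC and length correction, which gave a median of 0.031 with 4 higher and 5 lower. *FBXW7*, the ubiquitin ligase subunit that sends MYC to the proteasome, had 827 and 906 counts in control and 1275 and 1529 counts in sgUSP22 libraries (log2 fold change 0.62, edgeR adjusted p = 0.000913). *FBXW7* was also picked for RT-qPCR in these cells and is no independent choice. *AURKA*, a mitotic kinase that can shield MYC-family proteins from FBXW7, had 7804 and 8077 counts in control and 12673 and 12655 counts in sgUSP22 libraries, a log2 fold change of 0.60. *FBXO32*, another ligase subunit, had 513 and 398 counts in control and 265 and 208 counts in sgUSP22 libraries, a log2 fold change of -1.03. Both genes called higher lie close to the 1.5-fold line, and the list had 1 gene called higher after the GC and length correction or without control replicate 1, and 0 without sgUSP22 replicate 2, where 2 were called lower. Of 19 tested cofactors of MYC and MXD proteins, such as *TRRAP*, *SIN3A* and *HDAC1*, edgeR and DESeq2 both called 0. The median log2 fold change was -0.06, and 6 rose and 6 fell at the adjusted p alone, the same counts as at the unadjusted p.

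Of 42 tested genes that MYC is known to raise, 0 were called higher and 6 lower, or 14.3% lower against 7.25% of all tested genes. At the adjusted p alone 22 fell and 8 rose, or 52.4% and 19.0% against 25.8% and 26.8%, at the unadjusted p 23 were lower and 8 higher, and DESeq2 called 0 higher. The median log2 fold change was -0.14. *SRM*, spermidine synthase, had 14185 and 14718 counts in control and 8599 and 7806 counts in sgUSP22 libraries, a log2 fold change of -0.90. *PPAN*, a ribosome assembly factor that shares exons with a readthrough gene, had 3544 and 3980 counts against 2585 and 2121 counts, a log2 fold change of -0.76. *TERT*, the telomerase catalytic subunit, was scarce, with 84 and 108 counts in control and 58 and 35 counts in sgUSP22 libraries (log2 fold change -1.12, SE 0.33). Of the other 3 called genes, named after their values were seen, *NOLC1* and *RRP12* lie on the shifted part of chromosome 10, and *NME1* has a near-identical neighbour, *NME2*, that can share its reads. Without the 2 genes on that part of chromosome 10, 4 of 40 were called lower, or 10.0%, against 6.60% of the tested genes elsewhere. The GC and length correction left 3 of 42 called lower, and 976 of all 15150 tested genes. At the adjusted p alone that correction gave 25 lower and 8 higher, with the median still at -0.14.

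Of the 14 tested genes that MYC is known to lower, more fell than rose. At the adjusted p alone 2 rose and 8 fell, or 14.3% and 57.1% against 26.8% and 25.8% of all tested genes, with a median of -0.17 on the log2 scale. With the GC and length correction 5 were higher and 7 lower at the adjusted p, 1 was called higher and 4 lower, and the median was -0.20. With the fold threshold and no correction 1 was called higher and 3 lower, or 7.14% and 21.4% against 8.88% and 7.25%. *CDKN1C*, which encodes the cell cycle inhibitor p57, had 1978 and 1961 counts in control and 4368 and 3995 counts in sgUSP22 libraries and rose from 31.9 ± 0.711 to 64.2 ± 3.24 CPM (SD, n = 2), a log2 fold change of 1.01. The 3 called lower were *HES1*, a Notch target (log2 fold change -0.89), *KLF6*, a zinc finger tumour suppressor (-0.84), and *GADD45A*, a stress and DNA damage gene (-0.79). Of 11 tested targets of MLX with its partners, 1 was called higher and 2 lower, or 9.09% and 18.2% against 8.88% and 7.25%. The median of -0.01 has no settled sign, being 0.055 after the GC and length correction and 0.11 without the shifted part of chromosome 10. It was also 0.11 with DESeq2 and in edgeR without the count filter. Both of these take in *PKLR*, which had at most 4 counts and is not among the 11. *FASN*, fatty acid synthase, had 22463 and 23812 counts in control and 45759 and 44193 counts in sgUSP22 libraries (log2 fold change 0.88). *KLF10* and *PFKFB3*, the latter a regulator of glycolysis, had -0.75 and -0.73. *TXNIP*, the classic MondoA target, named after its values were seen, fell without reaching 1.5-fold, with a log2 fold change of -0.53 (edgeR adjusted p = 1.52e-06). *ARRDC4*, from the same list and also named after its values were seen, had 0.30 and did not pass (edgeR adjusted p = 0.175).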

How the data were processed

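RNA-seq was available for 4 libraries, 2 control and 2 sgUSP22, grouped by the titles of the samples. The authors aligned reads to hg38 with HISAT2 2.2.1 and deposited whole-number gene counts from StringTie 2.2.1, which derives counts from read coverage, without scaling to library size. The annotation, strand setting and read length are not given in the sources used here. The deposited counts were tested by edgeR 4.0.16 (R 4.3.3) using TMM factors, filterByExpr (minimum count 10) and the quasi-likelihood F test, with Benjamini-Hochberg adjustment. A gene was called when its adjusted p was under 0.05 and it differed by 1.5-fold or more. SEs were computed from the size of the log2 fold change and its F value. DESeq2 1.42.0 was an alternative, with independent filtering at 0.1, as were RLE factors, library size alone, other filters, the replicate block, a GC and length correction (lowess span 0.3) and leaving out each library. The procedures were tested on simulated data. Positions and lengths came from GENCODE version 44 for hg38, to which 25763 of 28278 symbols matched. GC content and length were known for 14384 of 15150 tested genes, and no trend was removed for the rest. Besides the 10 genes, the rule for naming covered the other MAX and MLX network genes, at most 3 called genes in each direction per list, *USP22* and the genes nearest to *MYC*. The search for genes nearest to a called member was void, since 0 were called. Cell type markers, overlapping genes and further list genes were named outside this rule. Those list genes include *FUBP3*, *KHSRP*, *NOLC1*, *RRP12*, *NME1*, *TXNIP*, *ARRDC4*, *PKLR*, *TRRAP*, *SIN3A* and *HDAC1*. The members and lists were chosen with earlier results of these data known. The alternatives without part of chromosome 10 and with *MXI1* in a ratio were chosen after seeing the data.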

Additional observations from a re-analysis of the deposited data

How the results depend on the processing

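In 99 comparisons of the 9 tested network genes with another setting, 93 had the same direction and stayed on the same side of adjusted p = 0.05. *MLX* reversed after the GC and length correction (0.026). *MXD3* newly passed with library size alone (0.31), a mean of at least 50 counts (0.25) and the GC and length correction (0.44), and *MYCL* without sgUSP22 replicate 1. *MNT* no longer passed without sgUSP22 replicate 2. Leaving out each library in turn gave log2 fold changes of -0.84 to -0.22 for *MYCL*, 0.18 to 0.35 for *MNT*, 0.42 to 0.57 for *MXD1*, 0.43 to 0.55 for *MXD4* and 0.20 to 0.32 for *MXD3*. In these fits the lone library of a group is assumed to vary like the other group. For *MNT* the lowest value was that without control replicate 1, where it still passed. The cause of these shifts was not tested, except that the correction acts on GC content and length by construction.

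With *MXI1* in the antagonist sum, chosen after seeing the data, *MYC* over the sum changed by -21.9% in place of -35.8%, and the sum over *MAX* reversed to -12.6%, by construction since *MXI1* fell. Of the 9 genes, 1 was called higher after the GC and length correction. Across fits without 1 library, 0 were called higher and between 0 and 1 lower. Without the fold threshold, by construction, 4 were higher and 2 lower, and over all genes 4057 and 3904, against 1345 and 1098 called. In the same setting the lists had 1 higher and 2 lower (other network genes), 3 and 9 (*MYC* transcription and mRNA), 9 and 4 (protein turnover), 6 and 6 (cofactors), 8 and 22 (raised by MYC), 2 and 8 (lowered by MYC) and 3 and 5 (MLX targets). For genes raised by MYC, 1 was called higher either with library size alone or when GC and length trends were removed, and the latter left 3 called lower. For protein turnover genes that correction left 1 called higher, and fits without 1 library gave 0 to 2 higher and 1 to 2 lower. Without the shifted part of chromosome 10, 1 gene of *MYC* transcription was called lower. With library size alone the median of all tested genes moved from 0.001 to 0.053.

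The replicate numbers were not taken as pairs, since neither the labels nor the methods tie a number to a batch. Libraries sharing a number deviated with a correlation of 0.042 over the 15150 tested genes and 0.27 over the 11906 whose average reached 1 log2 CPM. With the replicate block 1341 genes were called higher and 1100 lower, *MYC* had a log2 fold change of -0.23, and no network gene changed its side of the threshold.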
